A study of Mus musculus with 6 samples.

Results

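High-mobility group (HMG) proteins are small, abundant proteins that bind and bend DNA or bind nucleosomes, and so change how open chromatin is. The mRNAs described here are those of the AT-hook proteins (Hmga1, Hmga2), the HMG-box proteins (Hmgb1, Hmgb2, Hmgb3) and the nucleosome-binding proteins (Hmgn1, Hmgn2, Hmgn3, Hmgn5), chosen by gene symbol: 9 of the 22564 protein-coding genes in the deposited table. RNA immunoprecipitation sequencing (RIP-seq), which sequences the RNA that comes down with a protein caught by an antibody, was done on mouse cultured germ stem cells. The labels name no genotype, strain, animal age or passage and do not say whether the libraries came from separate cultures, so p-values cover the spread between these libraries only, which may be technical. All cells grew in StemPro-34 medium with GDNF and FGF2 added at 10 ng/ml each. Among the 6 libraries, 2 hold RNA caught with an anti-IGF2BP1 antibody (IGF2BP1 RIP), 2 hold RNA caught with control IgG (IgG RIP) and 2 hold RNA without any pull-down (input).

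IGF2BP1 is an RNA-binding protein of the cytoplasm that is known for protecting the mRNAs it binds from decay and from microRNAs. In human tumour cells the mRNA of HMGA2, a classic target of the let-7 microRNAs, is known to be carried by IGF2BP proteins. HMGA proteins and HMGB2 are known in the mouse for roles in proliferating, undifferentiated cells and in the testis, and HMGB1 also acts outside the cell as an alarm signal.

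Depth was 2793425 and 2836942 fragments for IGF2BP1 RIP, 2558673 and 2723449 for IgG RIP, and 1639250 and 1693165 for input. The 2 IgG libraries were unlike each other: Pearson's r of log2 CPM across genes, which are not independent replicates, was 0.979 within IGF2BP1 RIP, 0.849 within IgG RIP and 0.969 within input. The coefficient of variation beyond counting noise was 7.76% for IGF2BP1 RIP, 50.4% for IgG RIP and 6.76% for input. Levels are given in CPM after TMM scaling, which brings libraries to 1 common size, and so are shares of a library: the amount of RNA pulled down was not compared. All 9 mRNAs passed the filter on low counts, as did 12053 genes in all. Markers of the labelled cell type were present, with all 16 germ stem cell markers tested and summed levels of 3602 to 4139 CPM. Of 16 fibroblast and feeder markers, 16 were tested (4546 to 5141 CPM), as were 12 of 13 macrophage markers (3361 to 3976 CPM) and 4 of 12 Sertoli and Leydig markers (45.6 to 90.8 CPM, with Amh, Cyp11a1 and Cyp17a1 at 0). In IGF2BP1 RIP over IgG RIP, 2 of the 12 macrophage markers were called higher and 1 lower (median log2 fold change 0.52), and their part in the results below was not tested. In such bulk RNA, fewer cells of a type and less RNA per cell cannot be told apart.

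Of the 9 mRNAs, Hmga1 had a larger share in IGF2BP1 RIP than in both kinds of control. Hmgb1 and Hmgb2 were higher in IGF2BP1 RIP than in IgG RIP but were not called against input, and Hmgn1 and Hmgn5 were lower in both pull-downs than in input. Hmga2, Hmgb3, Hmgn2 and Hmgn3 were not called in either comparison of IGF2BP1 RIP. The test was edgeR's quasi-likelihood test with all 6 libraries in 1 model, and a gene was called at a Benjamini-Hochberg adjusted p under 0.05 over all genes tested. That model shares its estimate of spread among groups, though IgG RIP varied far more than the others, and the calls depend on it. With only the 2 groups compared in the model, 0 of the 9 were called over IgG RIP, against 1.23% of genes. Over input 7 were called, against 36.1% of genes, with Hmgb2, Hmgb3, Hmgn2 and Hmgn3 among those lower.

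**Figure D1:**
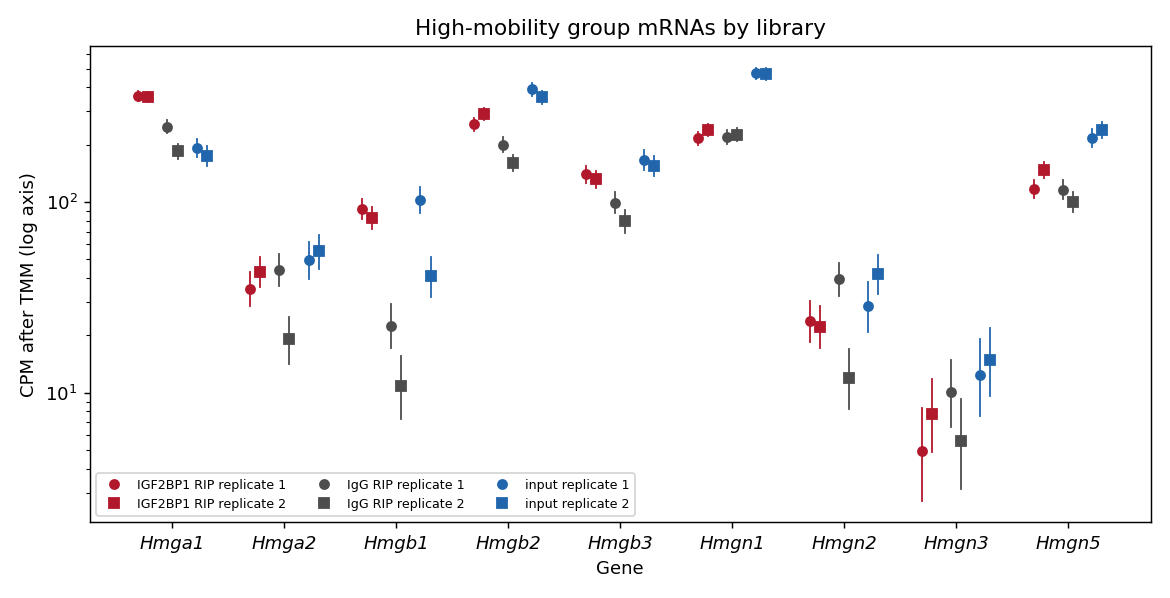
Level of each HMG mRNA in each of the 6 libraries, in CPM after TMM on a log axis, with lines for exact 95% Poisson intervals (counting error only). Both IGF2BP1 libraries lie above all other libraries for Hmga1. Both input libraries lie above all pull-downs for Hmga2, Hmgb2, Hmgb3, Hmgn1, Hmgn3 and Hmgn5, and stand apart from each other for Hmgb1.

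Hmga1 (ENSMUSG00000046711, plus strand, GRCm38 chromosome 17, 27556619 to 27566220 as the file gives it) encodes an architectural protein that binds AT-rich DNA through its AT-hooks. It stood at 360.3 and 355 CPM in IGF2BP1 RIP, while IgG RIP had 248 and 185 CPM and input had 192 and 175 CPM. Both IGF2BP1 libraries were above all 4 controls, while the IgG and input libraries overlapped. Its log2 fold change in IGF2BP1 RIP was 0.73 ± 0.14 (SE) over IgG RIP, with means of 358 ± 3.84 and 216 ± 44.2 CPM (SD, n = 2 each; adjusted p = 0.0305, edgeR quasi-likelihood test). Over input it was 0.96 ± 0.15, a 1.95-fold difference from the input mean of 183 ± 12.4 CPM (adjusted p = 0.0138, edgeR). Fitted without IgG RIP, the adjusted p over input in edgeR was 1.53e-09, and fitted without input, the adjusted p over IgG RIP was 0.107, which is not called. Hmga1 shares its locus span with AI413582 on the opposite strand, which had 15 to 26 fragments per library, and with C130040N14Rik, which had 1 fragment in all.

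Hmga2 (ENSMUSG00000056758, chromosome 10, 120361274 to 120476469), the AT-hook gene of embryonic and undifferentiated cells, was much scarcer. It stood at 35.2 and 43.1 CPM in IGF2BP1 RIP, while IgG RIP had 44.2 and 19.1 CPM and input had 49.6 and 55.1 CPM. The IGF2BP1 libraries lay within the range of the IgG libraries and below both input libraries. Its log2 fold changes were 0.31 ± 0.38 over IgG RIP (adjusted p = 0.669, edgeR) and -0.42 ± 0.38 over input (adjusted p = 0.617). The value over IgG RIP rests on which IgG library is kept: it was 1.04 without IgG replicate 1 and -0.18 without IgG replicate 2.

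Hmgb1 (ENSMUSG00000066551, minus strand, chromosome 5, 149046701 to 149215434) encodes the most studied HMG-box protein, which bends DNA through a pair of HMG boxes. It stood at 92.1 and 82.6 CPM in IGF2BP1 RIP, while IgG RIP had 22.5 and 10.8 CPM and input had 103 and 40.9 CPM. Both IGF2BP1 libraries were well above both IgG libraries and lay between the 2 input libraries. The log2 fold change was 2.39 ± 0.48 over IgG RIP, 5.24-fold, with means of 87.4 ± 6.71 and 16.7 ± 8.25 CPM (SD, n = 2 each; adjusted p = 0.0314, edgeR). Over input it was 0.28 ± 0.44 against a mean of 71.9 ± 43.9 CPM (adjusted p = 0.801), and IgG RIP itself was lower than input by a log2 fold change of -2.11 ± 0.49 (adjusted p = 0.0407). With only IGF2BP1 RIP and IgG RIP in the model Hmgb1 was not called (adjusted p = 0.0594, edgeR).

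The 2 input libraries differed 2.52-fold in CPM of Hmgb1, from 166 fragments in replicate 1 and 69 in replicate 2. The exact 95% Poisson intervals, 87.9 to 120 CPM and 31.8 to 51.7 CPM, do not overlap. Of the 7571 genes with a mean of at least 20 CPM in input, 99.8% had a smaller gap (on CPM with 0.5 added). Without input replicate 2 the value over input turned to -0.24 (adjusted p = 0.935, edgeR). The file gives Hmgb1 the same span as Uspl1, a gene on the opposite strand, while RefSeq places the body of Hmgb1 at 149046702 to 149053057. Whether counting used strand is not given in the sources used here. Uspl1 stood at 109 and 113 CPM in IGF2BP1 RIP, while IgG RIP had 170 and 139 CPM and input had 115 and 123 CPM, with a log2 fold change of -0.47 ± 0.14 over IgG RIP (adjusted p = 0.0948, edgeR). Summed and fitted as 1 gene, a choice made after seeing the data, Hmgb1 and Uspl1 differed by 0.21 ± 0.17 from IgG RIP (adjusted p = 0.488). RefSeq also lists 13 pseudogenes named after Hmgb1, of which 0 are in the table, so fragments from them or lost to them were not separated.

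The deposited count of a gene divided by its FPKM, called the length index here, tracks the transcript length that the authors' tool assumed in that library. For Hmgb1 it was 6.26 and 6.10 in IGF2BP1 RIP, while IgG RIP had 3.61 and 5.75 and input had 4.62 and 8.03, a 2.23-fold range over the 6 libraries. For the median of 9427 genes the range was 1.18-fold, and 88.2% of them varied less than Hmgb1. The input library with more Hmgb1 fragments thus had the shorter index. Hmga1 (1.34-fold) and Hmgn1 (1.41-fold) also varied more than the median gene, while Hmgb2, Hmgn5 and Hmga2 varied by 1.03-fold at most. FPKM values of Hmga1, Hmgb1 and Hmgn1 therefore carry this shift as well as a change in fragments.

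Hmgb2 (ENSMUSG00000054717, chromosome 8, 57511842 to 57515999), an HMG-box protein of dividing cells that mouse spermatogenesis needs, stood at 255 and 289 CPM in IGF2BP1 RIP, while IgG RIP had 200.2 and 160 CPM and input had 391 and 354 CPM. The 3 groups did not overlap, with IGF2BP1 RIP between IgG RIP and input. Its log2 fold change was 0.60 ± 0.14 over IgG RIP (adjusted p = 0.0444, edgeR), but with the replicate number as a block the adjusted p was 0.0600. Over input it was -0.45 ± 0.13 (adjusted p = 0.103), where it was called lower in a fit of those 2 groups alone (adjusted p = 7.52e-05, edgeR).

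Hmgb3 (ENSMUSG00000015217, chromosome X, 71555917 to 71560676), an X-linked relative known from blood stem cells, kept the same order of groups. It stood at 139 and 132 CPM in IGF2BP1 RIP, while IgG RIP had 99.3 and 79.2 CPM and input had 167 and 155 CPM, and no groups overlapped. The log2 fold change over IgG RIP, 0.60 ± 0.15, was close to that of Hmgb2 but missed the threshold (adjusted p = 0.0562, edgeR). It was 0.77 without IgG replicate 1 and 0.45 without IgG replicate 2, and it passed with a stricter filter on low counts (adjusted p = 0.0442, edgeR). With only the 2 groups in the model it missed the threshold too (adjusted p = 0.164, edgeR). Over input it was -0.25 ± 0.15 (adjusted p = 0.422).

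**Figure D2:**
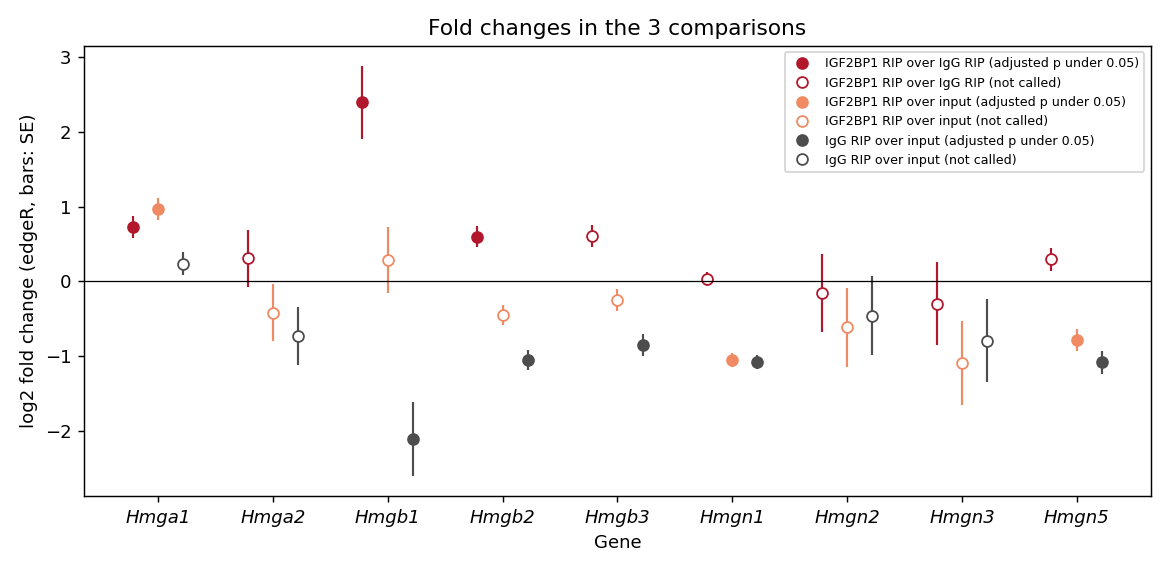
Log2 fold change of each HMG mRNA in the 3 comparisons with SE from edgeR, filled where the adjusted p was under 0.05. Hmga1 alone is filled above 0 against both controls, and Hmgb1, Hmgb2, Hmgb3, Hmgn1 and Hmgn5 are filled below 0 for IgG RIP over input.

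Hmgn1 (ENSMUSG00000040681, chromosome 16, 96120617 to 96127729) encodes a nucleosome-binding protein that competes with linker histone H1. It stood at 216 and 239 CPM in IGF2BP1 RIP, while IgG RIP had 219.6 and 225 CPM and input had 472 and 470.3 CPM. The pull-downs overlapped each other and both lay below both input libraries. Its log2 fold changes in IGF2BP1 RIP were -1.05 ± 0.09 over input (0.483-fold, adjusted p = 0.00224, edgeR) and 0.03 ± 0.09 over IgG RIP (adjusted p = 0.874). IgG RIP over input gave -1.08 ± 0.09 (adjusted p = 0.00302). On the authors' FPKM, which carry library depth and the length index, IGF2BP1 RIP over input was 0.09 (adjusted p = 0.726, limma), and with each library centred on its median it was -0.64 (adjusted p = 0.257).

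Hmgn5 (ENSMUSG00000031245, chromosome X, 109004533 to 109013404), an X-linked nucleosome-binding protein with a long acidic tail, had the same order of groups as Hmgn1 against input. It stood at 117 and 147 CPM in IGF2BP1 RIP, while IgG RIP had 116 and 99.8 CPM and input had 217 and 238 CPM. Both pull-downs were below both input libraries, and the lower IGF2BP1 library was just above the higher IgG library. Its log2 fold changes in IGF2BP1 RIP were -0.78 ± 0.15 over input (adjusted p = 0.0285, edgeR) and 0.29 ± 0.15 over IgG RIP (adjusted p = 0.284). Over IgG RIP it was 0.41 without IgG replicate 1. IgG RIP over input gave -1.08 ± 0.15 (adjusted p = 0.0101).

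Hmgn2 (ENSMUSG00000003038, chromosome 4, 133964737 to 133968650), a close relative of Hmgn1, had the widest gap between IgG libraries among the 9 (3.31-fold in CPM). It stood at 23.8 and 22.2 CPM in IGF2BP1 RIP, while IgG RIP had 39.6 and 11.96 CPM and input had 28.5 and 42.1 CPM. The IgG libraries, with 102 and 32 fragments, spanned all others but the higher input library. The log2 fold change was -0.16 ± 0.52 over IgG RIP (adjusted p = 0.883, edgeR) and -0.62 ± 0.53 over input (adjusted p = 0.593). Over IgG RIP it was 0.94 without IgG replicate 1 and -0.78 without IgG replicate 2, so that its direction rests on which IgG library is kept. RefSeq lists 2 pseudogenes named after Hmgn2, of which 0 are in the table.

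Hmgn3 (ENSMUSG00000066456, chromosome 9, 83109947 to 83147281), a nucleosome-binding protein of endocrine and nervous tissue, had only 14 to 26 fragments per library. It stood at 4.98 and 7.77 CPM in IGF2BP1 RIP, while IgG RIP had 10.1 and 5.61 CPM and input had 12.4 and 14.8 CPM. Both IGF2BP1 libraries were below both input libraries. The log2 fold changes were -0.30 ± 0.56 over IgG RIP (adjusted p = 0.791, edgeR) and -1.09 ± 0.56 over input (adjusted p = 0.335). Fitted without IgG RIP, it was called lower over input (adjusted p = 0.0267, edgeR).

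**Figure D3:**
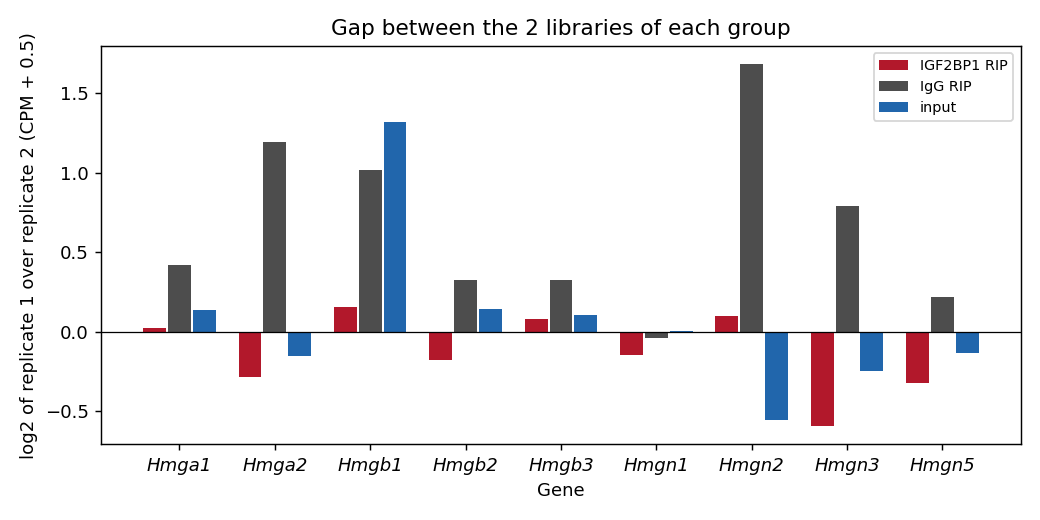
Log2 ratio of replicate 1 to replicate 2 within each group, from CPM with 0.5 added. The gaps exceed 1 in IgG RIP for Hmga2, Hmgb1 and Hmgn2 and in input for Hmgb1, and in IGF2BP1 RIP the widest is -0.59, for Hmgn3.

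Read as a family, 3 of the 9 mRNAs were called higher than in IgG RIP and 0 lower (edgeR, adjusted p under 0.05), where IGF2BP1 RIP had 3.29% of all genes called higher and 3.78% lower. At an unadjusted p under 0.05 there were 4. For counts at an unadjusted p, here and below, the share over all genes was not worked out. The median log2 fold change was 0.31, against -0.01 over all genes tested, with 7 values above 0 and 2 below. In 5 of the 9 both IGF2BP1 libraries lay above both IgG libraries, as in 27.4% of all genes, and in 0 both lay below, as in 24.7%. With only the 2 groups in the model 0 were called, against 1.23% of genes, with 4 at an unadjusted p under 0.05 in edgeR. DESeq2, fitted on all 6 libraries like the main model, called 3, and its share over all genes is not given here. Hmga1, Hmgb1 and Hmgb2 were each lost when any IGF2BP1 or input library was left out (adjusted p from 0.0530 for Hmgb1 without input replicate 2 to 0.344 for Hmgb2 without IGF2BP1 replicate 2). All 3 stayed above 0 without either IgG library, with Hmgb1 at 3.01 without IgG replicate 1 and 1.95 without IgG replicate 2. Such fits take the lone IgG library to vary like the other groups, which varied far less than IgG RIP. Without IgG replicate 1 the count was 7 higher, where 2980 of all 12053 genes were called higher and 2681 lower. Without IgG replicate 2 it was 4 higher and 1 lower, where 2801 of all genes were higher and 2569 lower.

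Against input, 1 of the 9 was called higher (Hmga1) and 2 lower (Hmgn1 and Hmgn5) in IGF2BP1 RIP, where 2.21% of all genes were called higher and 3.77% lower. The median log2 fold change was -0.45, against 0.0012 over all genes. In 1 of the 9 both IGF2BP1 libraries lay above both input libraries, as in 33.5% of all genes, and in 7 both lay below, as in 33.4%. With only the 2 groups in the model, 1 was called higher and 6 lower (edgeR), against 36.1% of genes in either direction. Those 6 were Hmgb2, Hmgb3, Hmgn1, Hmgn2, Hmgn3 and Hmgn5, with adjusted p from 1.11e-10 to 0.0357. With all groups in the model and 1 IGF2BP1 or input library left out, only Hmgn1 without IGF2BP1 replicate 2 was called (-1.11, adjusted p = 0.0466). The count was 6 without IgG replicate 1, where 2021 of all 12053 genes were called higher and 2075 lower. It was 7 without IgG replicate 2, where 1947 were higher and 2153 lower.

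IgG RIP against input sets the control pull-down against RNA that was not pulled down. Of the 9 mRNAs, 0 were called higher and 5 lower (Hmgb1, Hmgb2, Hmgb3, Hmgn1 and Hmgn5), where 4.19% of all genes were called higher and 4.9% lower. The log2 fold changes of the 5 ran from -2.11 for Hmgb1 to -0.85 for Hmgb3 (adjusted p = 0.0184, edgeR), with Hmgb2 at -1.05 (adjusted p = 0.00802). The median over the 9 was -0.85, against -0.0024 over all genes. In 7 of the 9 both IgG libraries lay below both input libraries, as in 28.5% of all genes, and in 0 both lay above, as in 25.3%. With only those 2 groups in the model 3 were called, Hmgb2, Hmgn1 and Hmgn5, against 2.29% of genes. Leaving out 1 IGF2BP1 library left the same 3, and leaving out 1 input library left 0 (edgeR, 5 at an unadjusted p under 0.05), as it left 0 of all genes. Without IgG replicate 1 the count was 8, where 2591 of all 12053 genes were called higher and 2999 lower. Hmgb1 was at -2.70 without IgG replicate 1 and -1.29 without input replicate 1. The 3 comparisons share libraries, so their values are not independent of each other.

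Summed by protein class, the AT-hook mRNAs took 396 and 398 CPM in IGF2BP1 RIP, while IgG RIP had 292 and 204 CPM and input had 242 and 229.8 CPM. The HMG-box mRNAs took 487 and 504 CPM in IGF2BP1 RIP, while IgG RIP had 322 and 249.7 CPM and input had 660.5 and 549.6 CPM. The nucleosome-binding mRNAs took 362 and 416 CPM in IGF2BP1 RIP, while IgG RIP had 385 and 343 CPM and input had 729.9 and 765 CPM. The AT-hook sum was thus highest in IGF2BP1 RIP, the HMG-box sum lay between its controls, and the nucleosome-binding sum was about as low in IGF2BP1 RIP as in IgG RIP. These sums are given with no test.

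Levels of different genes can be set side by side only per length, as the authors' FPKM do within a library. In IGF2BP1 RIP Hmga1 was highest at 219.9 and 213 FPKM, followed by Hmgn1 (123 and 128), Hmgb3 (99.8 and 93.0), Hmgb2 (79.6 and 90.0), Hmgn5 (52.8 and 65.9), Hmgb1 (42.2 and 38.8), Hmgn2 (18.8 and 17.4), Hmga2 (7.68 and 9.49) and Hmgn3 (5.86 and 8.96). Both libraries gave this order, and only the last pair overlapped. In IgG RIP the leaders were Hmga1 at 154 and 82.6 FPKM and Hmgn1 at 95.003 and 88.2, which overlapped, and the last was Hmga2 at 9.13 and 3.75. In input Hmgn1 was first at 109.7 and 127 FPKM. Hmgb3 (70.3 and 62.3), Hmgb2 (68.7 and 62.4), Hmga1 (63.7 and 57.4) and Hmgn5 (54.7 and 60.2) followed and overlapped with their neighbours, and Hmga2 was last at 6.32 and 6.999 FPKM. Hmga1 was thus first in both IGF2BP1 libraries and below Hmgn1, Hmgb2 and Hmgb3 in both input libraries.

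Median fold changes against input differed along the length index. Among 12043 tested genes with a length index, the shortest of 10 equal bins had a median log2 fold change of -0.53 in IGF2BP1 RIP over input and -0.37 in IgG RIP over input, against 0.02 and 0.24 for the longest bin. In IGF2BP1 RIP over input only bin 1 stood apart, as the medians of bins 2 to 10 lay between -0.07 and 0.11. In IgG RIP over input the medians rose along most of the bins. Of the 9 mRNAs, 7 had an index below the median gene: Hmgn3 lay in bin 1, Hmgb3 and Hmgn2 in bin 2, Hmga1 in bin 3, and Hmgb1, Hmgn1 and Hmgn5 in bin 4, with Hmgb2 in bin 6 and Hmga2 in bin 8. The median gene of bin 4 was at 0.10 over input in IGF2BP1 RIP and at -0.06 in IgG RIP, against -1.05 and -1.08 for Hmgn1. The median gene of bin 3 was at -0.02 in IGF2BP1 RIP over input, against 0.96 for Hmga1. Hmgn3, in bin 1, was at -1.09 over input in IGF2BP1 RIP and at -0.79 in IgG RIP, against -0.53 and -0.37 for its bin. In IGF2BP1 RIP over IgG RIP the medians of bins 2 to 8 lay between 0.02 and 0.11, while bins 1, 9 and 10 were at -0.14, -0.07 and -0.23. The part of length in the values of the 9 mRNAs was not tested.

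**Figure D4:**
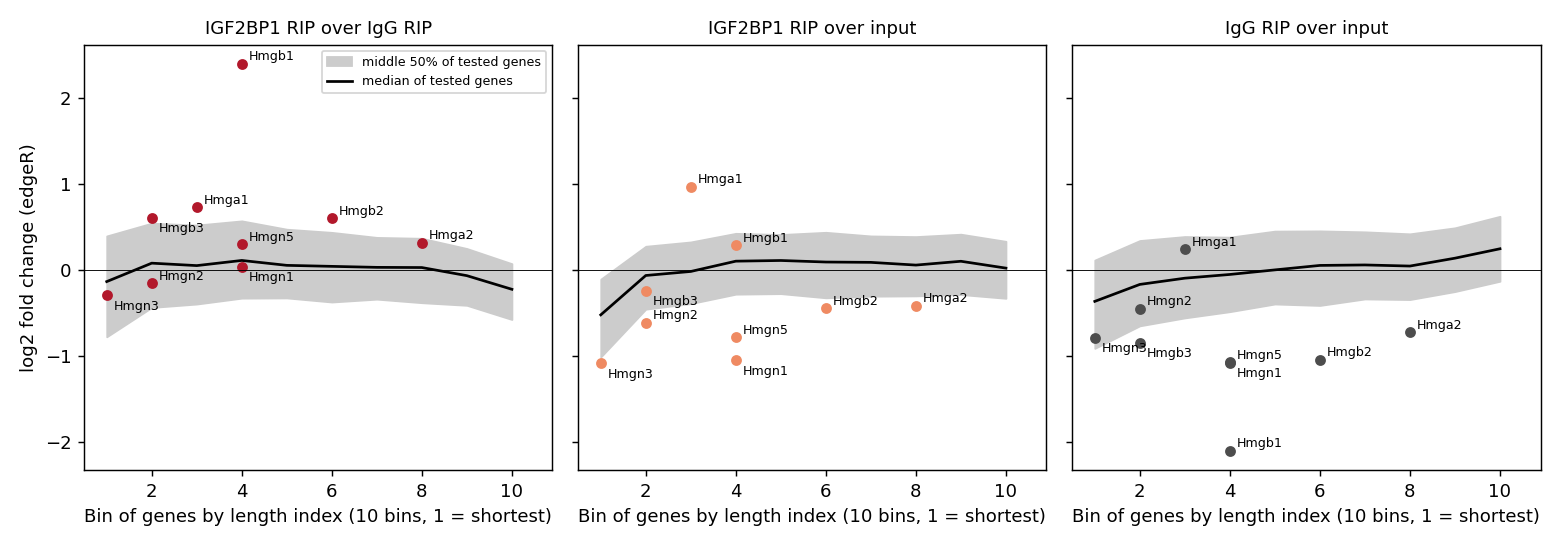
Log2 fold change in each comparison by bin of tested genes along the length index, with the median (line) and the middle 50% (grey) of all genes and the 9 HMG mRNAs as points. Hmga2, Hmgb2, Hmgn1 and Hmgn5 lie below the grey band against input in both pull-downs. Hmga1 lies above it in both comparisons of IGF2BP1 RIP.

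Other genes of HMG biology were read from 4 lists. Of 27 tested genes with an HMG box outside the family, 2 were called higher and 0 lower against IgG RIP (median -0.02), namely Tcf7, a transcription factor of Wnt signalling (424 ± 3.18 against 311 ± 22.8 CPM, log2 fold change 0.45), and Ssrp1, a subunit of the histone chaperone FACT (365 ± 2.12 against 273 ± 6.12 CPM, 0.42). Over input 3 were higher and 0 lower (median 0.10): Tcf7 (0.84), the repressor Cic (369 ± 10.7 against 184 ± 18.9 CPM, 1.01) and the SOX factor Sox13 (146 ± 5.26 against 72.5 ± 3.64 CPM, 1.01). These 3 were also called higher in IgG RIP over input (Tcf7 0.39, Cic 0.78 and Sox13 0.87), where 5 of the 27 were called higher and 0 lower (median 0.25). Tcf7 and Ssrp1 share their locus span with other genes, and neither passed against IgG RIP with only the 2 groups in the model (adjusted p = 0.113 and 0.117, edgeR).

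Linker histones, with which HMGN proteins compete, and nucleosome chaperones gave 3 higher and 4 lower of 18 tested against IgG RIP (median 0.07). The linker histone mRNAs Hist1h1e (166 ± 4.61 against 408 ± 59.8 CPM, log2 fold change -1.30), Hist1h1d (155 ± 3.30 against 296 ± 3.23 CPM, -0.93) and Hist1h1b (-0.89) were lower, and the chaperone Asf1b (81.9 ± 4.59 against 41.6 ± 9.94 CPM, 0.98) was higher. The remaining calls, named after their values were seen, were Nasp (0.50) and Npm1 (0.34), higher, and Hist1h1c (-0.57), lower. With only the 2 groups in the model 0 were higher and 3 lower. Over input 0 were higher and 3 lower (median -0.25), the chaperones Npm1 (-0.49) and Nasp (-0.37) and Hist1h1d (-0.49), the last of which shares its span with other genes. In IgG RIP over input, Npm1 (-0.84) and Nasp (-0.87) were called lower too, and Hist1h1d (0.45), Hist1h1e (0.92) and Hist1h1c (0.42) were called higher. Hist1h1e and Hist1h1c were not called in IGF2BP1 RIP over input with all 6 libraries in the model.

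Partners of HMGB proteins, the SET complex and receptors of extracellular HMGB1, gave 0 higher and 0 lower of 10 tested against IgG RIP (median -0.03) and 0 higher and 1 lower over input (median -0.53). The lower one was Anp32b, an acidic nuclear protein, at 552 ± 17.7 CPM in IGF2BP1 RIP against 985 ± 0.291 CPM in input (log2 fold change -0.83, adjusted p = 0.0147, edgeR). It was also called lower in IgG RIP, at 592 ± 120.9 CPM (-0.73 over input, adjusted p = 0.0180), where 1 of the 10 was higher and 2 were lower. Genes of the let-7 and LIN28 axis, which sets Hmga2 levels in other cells, made up the last list. Of 17 tested, 0 were called in either comparison of IGF2BP1 RIP, with medians of 0.05 and 0.12. Fitted without IgG RIP, 5 of these 17 were higher and 2 lower in edgeR, beside the 36.1% of all genes called in either direction in that fit.

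By likeness of pattern, measured as the root mean square difference of log2 CPM centred per gene over the 6 libraries, the nearest genes to Hmgn1 were C1galt1 (0.06), Cwc15 (0.06) and Ybx1 (0.08). The nearest to Hmgn5 were Rab12 (0.06), Npm3 (0.07) and Rpl10 (0.08). Ybx1, the mRNA of an RNA-binding protein, stood at 603 and 616 CPM in IGF2BP1 RIP, while IgG RIP had 558 and 665 CPM and input had 1310 and 1207 CPM. Nearest to Hmgb1 were Ccdc106 (0.22), Slc7a7 (0.24) and H2-Ke6 (0.29), all at 10.5 CPM or less, with IgG replicate 2 at 0 and the same gap between input libraries. Hmgb1 thus had no equally close neighbour among well-covered genes.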

How the data were processed

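The members and gene lists were chosen with earlier results of these data known, and all genes tested were fitted together. The authors deposited 1 table with a count and an FPKM column per library. The deposited count columns are read as estimated counts of fragments multiplied by 1 factor per library: 92.8% to 94.2% of values above 0 are whole multiples of 1 step (0.954 to 1.03), within 0.01. Values were divided by this step and rounded to fragments. The deposited FPKM, per the file headers, have totals that follow depth, and were used for 2 alternatives, for order within a library and for length. mm39, cutadapt 1.9.3 and FastQC are named in the submitters' processing notes. Of 20874 genes matched to RefSeq by gene number, 99.9% overlap their GRCm38 place, so coordinates are read as GRCm38. Aligner, counting tool and strand setting: not given in the sources used here.

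edgeR 4.0.16 in R 4.3.3 (filterByExpr, TMM, quasi-likelihood test, 3 groups in 1 model with 3 residual degrees of freedom, no batch named) was fitted on 12053 genes and tested on simulated data. The simulated libraries all varied alike, so that check did not cover the wider spread of IgG RIP. Depth was 1639250 to 2836942 fragments, and intervals cover counting error only. All 9 members are named; list genes are those called in IGF2BP1 RIP, at most 4 by absolute fold change per list and comparison, and 3 like genes are given for each of the 3 members with the widest range of group means. Alternatives used DESeq2 1.42.0, limma 3.58.1 on log2(FPKM + 1), other filters, scalings and sample sets, and a replicate block. Replicate numbers did not pair the libraries. A result is not reported here.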

Additional observations from a re-analysis of the deposited data

How the results depend on the processing

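Of 486 values of single genes under other settings, 386 kept direction and side of the threshold, 64 lost the call, 21 gained one and 15 turned sign; causes were not tested. With only the 2 groups compared, the members called numbered 0 in IGF2BP1 RIP over IgG RIP, 7 over input and 3 in IgG RIP over input, against 3, 3 and 5 with all libraries. On the authors' FPKM (limma) they numbered 0, 1 and 0, and on centred FPKM 0, 0 and 0; for the counts of 0, 3 and 1 members on FPKM and 2, 4 and 4 on centred FPKM had an unadjusted p under 0.05. With 1 library left out the counts ran from 0 to 7, from 0 to 7 and from 0 to 8, the lone library being taken to vary like the other groups; over IgG RIP, calls among all 12053 genes ran from 8 higher and 38 lower (without IGF2BP1 replicate 2) to 2980 higher and 2681 lower (without IgG replicate 1). Uncentred FPKM put the median gene at 0.68 in IGF2BP1 RIP over input and turned Hmga2 (0.32), Hmgb2 (0.37), Hmgb3 (0.54), Hmgn1 (0.091), Hmgn2 (0.30) and Hmgn5 (0.039) above 0. It also turned Hmgn2 to 0.23 over IgG RIP (0.19 centred) and to 0.072 in IgG RIP over input. Leaving out 1 library also turned signs. Over IgG RIP, Hmgn1 ran from -0.046 (without IGF2BP1 replicate 2) to 0.098, Hmgn2 from -0.78 to 0.94 and Hmgn3 from -0.66 to 0.18 (both highest without IgG replicate 1), and Hmga2 from -0.18 (without IgG replicate 2) to 1.04. Over input, Hmgb1 ran from -0.24 (without input replicate 2) to 1.095, and in IgG RIP over input Hmgn2 ran from -1.55 to 0.16 (without IgG replicate 2). Same-numbered libraries did not deviate together (correlations -0.004 to 0.009), and with the replicate block the counts were 2, 3 and 5, Hmgb2 over IgG RIP being the call lost. With DESeq2 size factors, library size alone, no filter, the DESeq2 test or deposited counts as they stand the counts were 3, 3 and 5. With the stricter filter they were 4, 3 and 5, Hmgb3 over IgG RIP being the call gained. Unless stated above, the share of all genes called under these settings is not given here. Hmgn3 had 14 to 26 fragments per library, which limits its precision.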
